A study of Mus musculus with 19 samples.

Results

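The S100 genes encode small calcium-binding proteins of the EF-hand type. Here, 10 of them (S100a1, S100a4, S100a6, S100a8, S100a9, S100a10, S100a11, S100a13, S100b and S100g) were followed in obstructed mouse kidneys. They were taken by gene symbol from the count table, in which they are 10 of 54532 genes and 10 of the 17 genes with an S100 name. The kidneys came from male C57BL/6J mice, 8 to 9 weeks of age, after unilateral ureteral obstruction (UUO), in which the left ureter is tied off and cut and the kidney above it becomes inflamed and fibrotic. The obstructed kidney of every mouse was taken on day 12 and its RNA was sequenced as a whole. WT mice and mice that lack CD5L (CD5L KO), a circulating protein made by macrophages, were given intraperitoneal recombinant CD5L (rCD5L, 0.5 mg per mouse) or the same volume of PBS every day. PBS went to 5 WT and 4 CD5L KO mice, and rCD5L to 5 mice of each genotype. All 19 kidneys were obstructed, so the values below compare obstructed kidneys with each other and not with healthy tissue.

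S100 proteins usually work as dimers. Calcium opens a binding surface on them, through which they hold annexins, myosins and other partners inside the cell. Some are also released from stressed cells or leukocytes and act on receptors such as RAGE (Ager) and TLR4, and S100A8 and S100A9 are the best known of these danger signals. S100g is different, since it buffers and ferries calcium in the distal nephron. The study asked what CD5L does to injury and inflammation in the obstructed kidney, and the values below show how the mRNA of each S100 gene stood under the same treatments.

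Each kidney had between 17917491 and 23847090 counts in all. Cd5l had 0 counts in each of the 9 CD5L KO kidneys, where a count of 0 allows up to 3 counts, and 3 to 15 counts in each WT kidney. The kidney-defining marker genes were present in every library, with a summed level of 2789 to 13300 CPM (counts scaled to library size, with TMM factors). Replicate 4 of the CD5L KO group on rCD5L stood apart. Its 10 proximal tubule markers summed to 55255 CPM against 3294 to 9471 CPM in the other 18 kidneys, and its 12 macrophage markers to 972 CPM against 2520 to 4079 CPM. Its 10 tubular injury markers summed to 12011 CPM against 18689 to 32934 CPM in the others. Its 10 fibroblast and myofibroblast markers summed to 1541 CPM against 3093 to 6892 CPM. Its counts differed from those of the rest of its group by a chi-square per degree of freedom of 298 to 319. Replicate 3 of that group also differed from replicates 1, 2 and 5, by 78.7 to 94.6, where these 3 differed among themselves by 9.33 to 15.7. For the S100 genes, the fold changes for rCD5L in CD5L KO mice and the correlations are given with and without replicate 4.

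Of the 10 genes, 8 lie on chromosome 3 of GRCm38, S100b lies on chromosome 10 and S100g on chromosome X. S100a1 (ENSMUSG00000044080, chromosome 3, 90511034 to 90514392, minus strand) and S100a13 (ENSMUSG00000042312, 90514435 to 90524581, plus strand) stand head to head with 42 bases between their annotated starts. This stretch, chr3:90514393-90514434, is shown because both flanking genes were higher in CD5L KO kidneys in the main fit (below). Neither gene passed the test once gene length was allowed for. The stretch is printed on the plus strand in lower case, with 54.8% G and C.
S100a1 to S100a13: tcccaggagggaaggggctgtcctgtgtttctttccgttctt

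Windows of 300 bases around a RefSeq start site (GRCm38.p6, 250 before and 50 from the start) were matched for 9 of the 10 genes, all except S100a10. S100a8, S100a9 and S100g are described at length under rCD5L below, although none passed the test there, and S100a4 holds the letters searched. The 30 bases from 45 to 16 before the start are therefore shown for the alarmin pair S100a8 and S100a9, for S100a4 and for S100g. They are written 5′ to 3′ on the strand of the gene, with the letters TATAAA, searched on that strand alone, in capitals. S100a8 is at chr3:90669026-90669055 (plus strand), S100a9 at chr3:90695737-90695766 (minus), S100a4 at chr3:90603725-90603754 (plus) and S100g at chrX:162964615-162964644 (minus).
S100a8: ggccaagctttcctcTATAAAagcagctga
S100a9: aagcaatcttccccgagataaccatgtatc
S100a4: agggcctggcagggTATAAAtaggtcagat
S100g: aaacaaaggggaatttcacaatcagggtgg
These letters were found in 2 of the 9 genes (S100a8 and S100a4) and in 2.14% of all 32851 windows. S100a11, the gene with the highest level, held the AP-1 type motif TGANTCA (searched on both strands of the 300 bases) at 136 and 38 bases before its start, as did 7.81% of all windows at least once. The sites are given with 10 bases on each side and the motif in capitals.
S100a11, farther site: agagacctgtTGAGTCAcagggactac
S100a11, nearer site: gggcacagccTGAGTCAggctgagggg
The antioxidant response motif TGACNNNGC (both strands) was found in 1 of the 9 genes, S100g, and in 12.4% of all windows. It lay on the opposite strand, 223 bases before the start, and is shown on the strand of the gene.
S100g: tgggctgtgcGCAAGGTCAaaattctata
No gene of the 9 held more than 1 of these motifs, so none overlapped, and a match of letters says nothing on whether a factor was bound.

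The genes differed widely in level on the FPKM scale, which divides by gene length and allows genes to be compared. S100a11 was the highest, with 503 to 917 FPKM (median 773), followed by S100a1 (median 242), S100a10 (200.3), S100a6 (140.0), S100g (95.6) and S100a13 (46.1). S100a9 (median 5.81 FPKM) and S100a8 (3.84 FPKM) were far lower, and S100a4 (0.917 FPKM) and S100b (0.315 FPKM) were at the edge of detection. The level of S100a4 is uncertain, since 302 of its 584 exon bases are shared with another annotated gene (below). The order of some neighbours did not hold in every kidney. S100a1 lay above S100a10 in 17 of 19 kidneys, S100a10 above S100a6 in 18, S100a6 above S100g in 17 and S100a9 above S100a8 in 18, while the other 5 neighbouring pairs kept their order in all 19. Together the 10 genes made up 0.384% to 0.620% of the FPKM sum of a kidney.

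**Figure D1:**
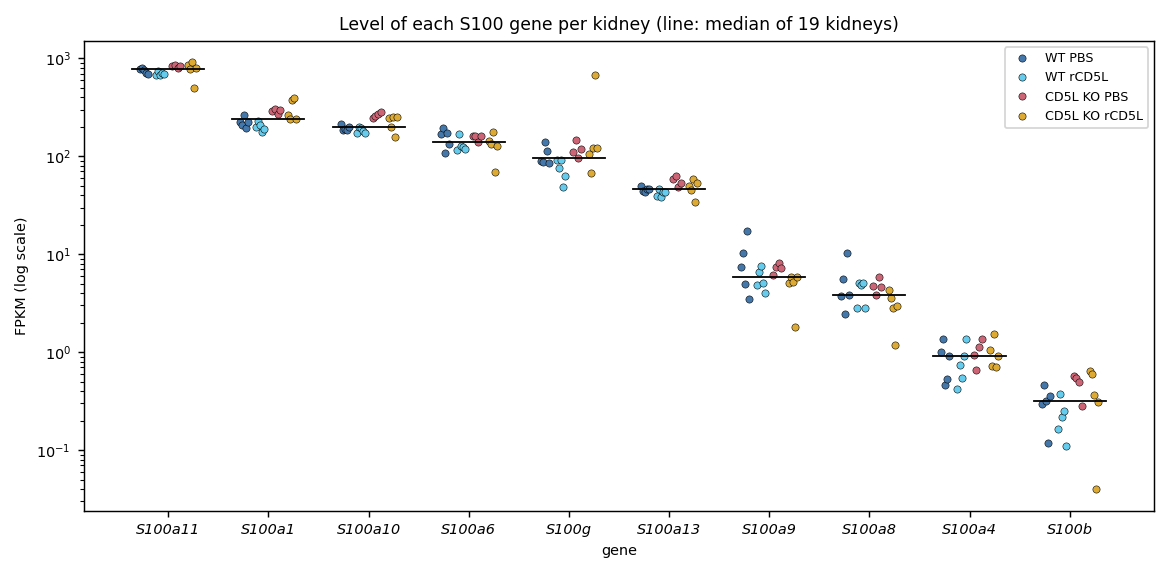
FPKM of each S100 gene (log axis) in 19 obstructed kidneys, by group, with genes ordered by their median (line). S100a11 is highest at 773 FPKM and S100b lowest at 0.315 FPKM, and replicate 4 of the CD5L KO group on rCD5L is the kidney in which S100g reaches 675 FPKM.

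The comparison of CD5L KO with WT kidneys, both given PBS, asks what the absence of CD5L does in the obstructed kidney. The S100 genes that rose were S100a10, S100a1 and S100a13, by 1.38-, 1.31- and 1.22-fold. None fell, and S100a8, S100a9, S100a6, S100g, S100a4, S100b and S100a11 did not pass the test. With an offset for gene length only S100a10 still passed, and with all 19 kidneys in 1 fit no S100 gene studied here did (below). With edgeR's quasi-likelihood test and Benjamini-Hochberg adjustment, 3 of the 10 genes had an adjusted p under 0.05, all higher in CD5L KO, against 10.5% of all 17579 genes tested in either direction and 5.13% in this one. The kidneys of the 2 groups did not overlap for 3 of the 10 genes (S100a10, S100a1 and S100a11), against 14.1% of all genes tested. By direction alone, 8 of the 10 were higher and 2 lower, with a median log2 fold change of 0.23 against -0.0046 for all genes tested. In whole kidneys, fewer cells of a type and less RNA per cell cannot be told apart.

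The S100 genes that bind annexins and other partners beneath the membrane come first. S100a10 (p11; ENSMUSG00000041959, chromosome 3, 93555080 to 93564643, plus strand) does not need calcium and, as a tetramer with annexin A2, brings channels such as TRPV5 to the plasma membrane. It stood at 317, 275, 279, 272 and 296 CPM in WT mice given PBS and at 372, 390.3, 403 and 427 CPM in CD5L KO mice given PBS. Every CD5L KO kidney was above every WT kidney. The log2 fold change was 0.46 (SE 0.064, adjusted p = 0.00470 by edgeR).

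S100a11 (calgizzarin, a partner of annexin A1; ENSMUSG00000027907, chromosome 3, 93520488 to 93526287, plus strand) stood at 484, 500.5, 481, 446 and 431 CPM in WT and at 531, 537, 506 and 532 CPM in CD5L KO kidneys. Here too the groups did not overlap, but the gap was narrow, with a log2 fold change of 0.16 (SE 0.058, adjusted p = 0.0927). DESeq2 gave it an adjusted p of 0.0258. S100a6 (calcyclin, which binds Cacybp and Sugt1) stood at 278, 326, 182, 289.7 and 225 CPM in WT and at 273, 273, 237 and 275 CPM in CD5L KO kidneys. The CD5L KO values lay inside the WT range, and the log2 fold change was 0.019 (SE 0.14, adjusted p = 0.948).

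The head-to-head pair S100a1 and S100a13 came next. S100a1, known for its hold on calcium pumps and release channels in muscle, stood at 189.8, 177, 223, 166 and 191 CPM in WT and at 246, 259.8, 233 and 256 CPM in CD5L KO kidneys. All CD5L KO kidneys were above all WT kidneys, with a log2 fold change of 0.39 (SE 0.078, adjusted p = 0.0104). S100a13, which helps FGF1 and IL-1α leave the cell without a signal peptide, stood at 43.1, 38.8, 37.9, 40.1 and 40.4 CPM in WT and at 51.4, 55.3, 43.0 and 46.9 CPM in CD5L KO kidneys. The groups met at 1 CD5L KO kidney, replicate 3. The log2 fold change was 0.29 (SE 0.076, adjusted p = 0.0311), and this call was lost without CD5L_KO_PBS replicate 1 (0.27, adjusted p = 0.0844), without CD5L_KO_PBS replicate 2 (0.23, 0.0956), and without WT_PBS replicate 2 (0.28, 0.0739), 3 (0.27, 0.0518), 4 (0.29, 0.0673) or 5 (0.29, 0.0582).

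S100g (calbindin-D9k; ENSMUSG00000040808, chromosome X, 162961992 to 162964599, minus strand) stood at 52.5, 51.3, 81.3, 66.9 and 49.8 CPM in WT and at 65.2, 87.0, 56.8 and 70.5 CPM in CD5L KO kidneys given PBS. The groups overlapped, and the log2 fold change was 0.21 (SE 0.15, adjusted p = 0.422).

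S100a8 and S100a9, which pair as calprotectin in neutrophils and monocytes, were low in all kidneys. S100a9 (ENSMUSG00000056071, chromosome 3, 90692632 to 90695721, minus strand) stood at 4.64, 6.57, 3.19, 10.97 and 2.23 CPM in WT and at 3.98, 4.78, 5.27 and 4.69 CPM in CD5L KO kidneys. S100a8 (ENSMUSG00000056054, chromosome 3, 90668978 to 90670035, plus strand) stood at 3.14, 4.80, 2.10, 8.71 and 3.24 CPM in WT and at 4.03, 3.30, 5.07 and 3.96 CPM in CD5L KO kidneys. For both genes the WT kidneys spread on both sides of the CD5L KO kidneys, with WT replicate 4 the highest. The log2 fold changes were -0.24 (SE 0.36, adjusted p = 0.728) for S100a9 and -0.11 (SE 0.34, adjusted p = 0.879) for S100a8. Without WT replicate 4 they were 0.16 and 0.29, so 1 kidney set their direction. The 14 neutrophil markers summed to 59.7 CPM in that kidney and to 21.0 to 43.9 CPM in the other WT kidneys given PBS. The defining neutrophil genes Ly6g, Mpo, Elane, Camp, Ngp and Fcnb had 36, 41, 18, 18, 32 and 2 counts over all 19 kidneys. Their part in the S100a8 and S100a9 values was not tested.

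S100a4 (FSP1), used as a fibroblast and macrophage marker, and S100b, a marker of glia that fat cells also make, were barely measured, with 265 and 258 counts over all 19 kidneys. S100a4 had 7 to 24 counts per kidney, and 302 of its 584 exon bases are shared with the annotated gene Gm42674 on the same strand, which had 0 counts. It stood at 0.71, 0.97, 0.33, 0.38 and 0.65 CPM in WT and at 0.68, 0.48, 0.81 and 0.99 CPM in CD5L KO kidneys. How reads that fall on both were counted is not given in the sources used here, so the S100a4 counts are uncertain. S100b stood at 0.53, 0.84, 0.57, 0.22 and 0.65 CPM in WT and at 1.04, 0.9997, 0.91 and 0.52 CPM in CD5L KO kidneys. The groups overlapped, and the log2 fold changes were 0.61 (SE 0.36, adjusted p = 0.299) for S100b and 0.25 (SE 0.36, adjusted p = 0.716) for S100a4. The 95% interval for S100b ran from -0.16 to 1.38, at 1 to 26 counts per kidney over the series. The 8 glia and Schwann cell markers summed to 55.4 to 64.2 CPM in WT and 57.6 to 61.4 CPM in CD5L KO kidneys, and the 8 adipocyte markers to 147 to 333 CPM and 200.4 to 417 CPM, and their part in the S100b values was not tested.

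**Figure D2:**
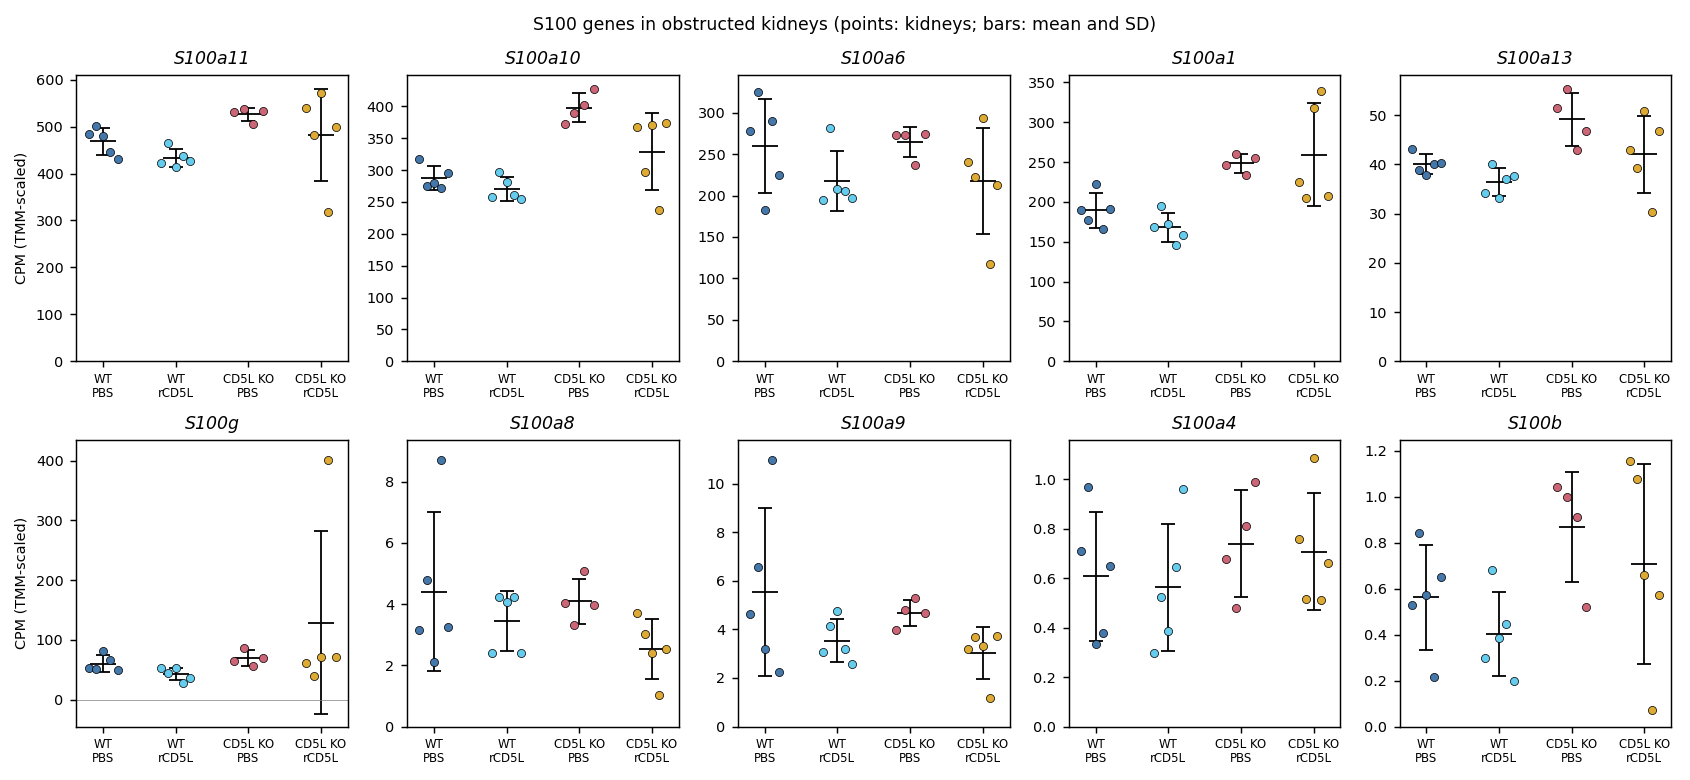
TMM-scaled CPM of each S100 gene in every obstructed kidney (points) of the 4 groups, with the group mean and SD (bars, n = 4 or 5). For S100a10, S100a1 and S100a11 all CD5L KO kidneys given PBS lie above all WT kidneys given PBS, and in the S100g panel replicate 4 of the CD5L KO group on rCD5L stands at 401 CPM.

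The S100 genes are short, and gene length moved with this comparison. The median exon length was 694 bases for the 10 genes and 3808 bases for all genes tested. Across all genes, the log2 fold change fell with length (Spearman rho = -0.277 over 17579 genes, which are not independent). The 1065 other protein-coding genes of at most 1484 bases, the length of the longest S100 gene studied here, had a median log2 fold change of 0.18, and 16.9% of them were called higher. With an offset for the length trend of each kidney, 1 of the 10 genes kept an adjusted p under 0.05, against 7.42% of all 17579 genes tested in that fit. S100a10 stayed higher, with a log2 fold change of 0.33 (SE 0.065, adjusted p = 0.0145). S100a1 had 0.22 (adjusted p = 0.112), S100a13 had 0.12 (adjusted p = 0.359), and S100a11 had -0.028 (adjusted p = 0.814). With all 19 kidneys in 1 fit, 0 of the 10 genes were called, and 12 of 18454 genes in all (0.065%).

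**Figure D3:**
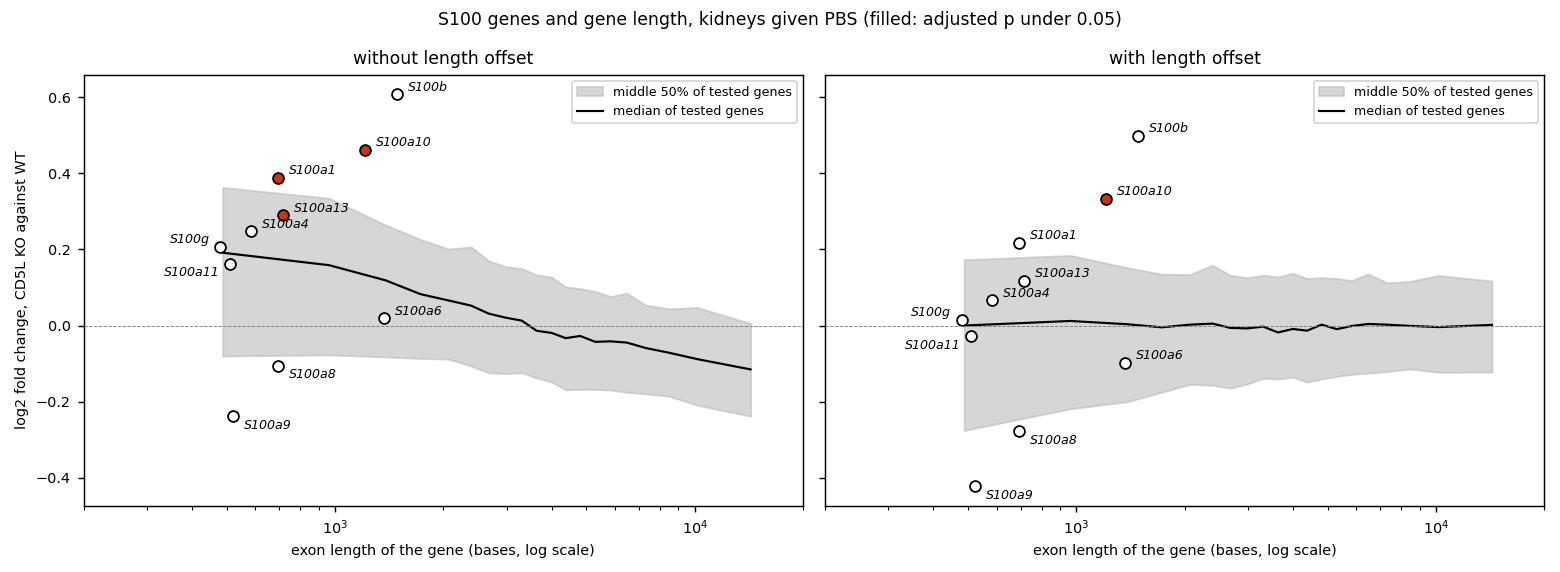
Log2 fold change of CD5L KO against WT kidneys given PBS, plotted against exon length (log axis), without (left) and with (right) an offset for length, with the median and the middle 50% of all tested genes in 20 bins of length and the 10 S100 genes as circles (filled where the adjusted p was under 0.05). Short genes as a whole lie above 0 on the left, and S100a10 is the filled circle that remains on the right, at 0.33.

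Other genes of S100 biology were read from lists, in the fit without the length offset. The length trend is therefore not removed from the values of the listed genes. In that fit 10.5% of all 17579 genes tested were called, 5.13% of them all as higher in CD5L KO kidneys. Of the 8 other S100 genes on the list, 7 are in the table, 4 could be tested and 1 rose in CD5L KO kidneys, the epithelial S100a16 (0.19, adjusted p = 0.0441), while S100a14 stood at 0.30 (adjusted p = 0.169). Of 9 receptors and coreceptors, 3 rose and none fell. These were Bsg, a receptor of S100A9 (0.23, adjusted p = 0.0191), Cd36, a fatty acid and scavenger receptor (0.42, 0.0191), and Cd14, the coreceptor of TLR4 (0.23, 0.0309). Ager, which encodes RAGE, stood at -0.06 (adjusted p = 0.814) and Tlr4 at 0.014 (adjusted p = 0.938).

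Of 20 binding partners, 2 rose and 3 fell, against 10.5% of all 17579 genes tested that were called in either direction. Anxa1, the partner of S100A11, rose by 0.32 (adjusted p = 0.0155) and Sugt1 by 0.27 (adjusted p = 0.0133). Myh10, a non-muscle myosin heavy chain, had a log2 fold change of -0.33 (adjusted p = 0.00805), the calcium-dependent membrane binder Anxa6 one of -0.27 (adjusted p = 0.0108) and the calcium pump Atp2a2 one of -0.28 (adjusted p = 0.0239). Anxa2, the partner of S100A10, did not pass the test at 0.19 (SE 0.088, adjusted p = 0.188). Of 9 tested genes of distal calcium transport, Klk1 rose (0.73, adjusted p = 0.0313) and the calcium pump Atp2b4 fell (-0.42, adjusted p = 0.00595), while Calb1 stood at 0.29 (adjusted p = 0.483) and the channel Trpv5 at 0.035 (adjusted p = 0.908).

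Markers of other cells moved in the same comparison, in which 901 of all 17579 genes tested were called higher and 949 lower. Of 10 fibroblast and myofibroblast markers, 6 fell and none rose, among them Col3a1 (-0.86, adjusted p = 0.00643) and Acta2 (-0.74, adjusted p = 0.0128), and their sum was 3207 to 4436 CPM in CD5L KO against 4548 to 6892 CPM in WT kidneys. Of 8 urothelium markers, all 8 were higher and none was called, with sums of 266 to 427 CPM against 35.5 to 230 CPM. Of 8 adipocyte markers, all 8 were higher and 1 was called (Fabp4, 0.49, adjusted p = 0.0338). Of 12 macrophage markers, the chemokine receptor Ccr2 rose (0.45, adjusted p = 0.0433) and Csf1r fell (-0.47, adjusted p = 0.0386), while Cd68 stood at -0.27 (adjusted p = 0.133). Of 10 tubular injury markers, the matrix protein gene Spp1 rose (0.51, adjusted p = 0.0143), while Havcr1 (0.32, adjusted p = 0.0962) and Lcn2 (0.16, adjusted p = 0.579) did not pass the test. Of the tested markers of neutrophils (7), connecting tubule and principal cells (9), proximal tubule (10), glia and Schwann cells (5), epididymis (4) and kidney as such (9), 0 were called. The part of these shifts in the S100 values was not tested.

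The comparison of rCD5L with PBS in CD5L KO mice asks what giving the missing protein back does. None of the 10 genes passed the test, as none of all 17467 genes did (0 called, 0%, by edgeR, 502 genes at an unadjusted p under 0.05, and 10 called by DESeq2). Of the 10 genes, 8 were lower and 2 higher with rCD5L, and their median log2 fold change was -0.23 against 0.019 for all genes tested. Without replicate 4 of the rCD5L group, 7 were lower and 3 higher, with a median of -0.12, and without replicate 3, 9 were lower and 1 higher, with a median of -0.26. Of the markers of other cells and tissues, 0 were called. The 5 tested epididymis markers were all higher with rCD5L (median 1.42), and the sum of the 8 on the list was 23.7 to 61.3 CPM against 8.19 to 21.8 CPM with PBS, with no overlap and Lcn9 at 0 counts. All 8 urothelium markers were lower (median -0.50), with sums of 141 to 296 CPM against 266 to 427 CPM, and all 10 proximal tubule markers were higher (median 1.36). Without replicate 4, in a fit added after seeing the data, the proximal tubule median was 0.022 with 7 of 10 higher, so that this kidney set it. The urothelium median was then -0.39 with all 8 lower, and the epididymis median 1.39 with all 4 tested higher. Their part in the S100 values was not tested.

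S100a9 was the gene whose groups did not overlap, 1 of the 10 against 2.34% of all genes tested. It stood at 3.98, 4.78, 5.27 and 4.69 CPM with PBS and at 3.20, 3.71, 3.30, 1.17 and 3.74 CPM with rCD5L, so that every treated kidney was below every control. The log2 fold change was -0.61 (SE 0.29, 95% interval -1.25 to 0.033, adjusted p = 0.897), and -0.41 (adjusted p = 0.763) without replicate 4. Its partner S100a8 stood at 4.03, 3.30, 5.07 and 3.96 CPM with PBS and at 3.69, 3.02, 2.41, 1.026 and 2.55 CPM with rCD5L. The groups met at 1 treated kidney, replicate 1, and the log2 fold change was -0.66 (SE 0.31, 95% interval -1.34 to 0.015, adjusted p = 0.897), and -0.48 (adjusted p = 0.763) without replicate 4. The neutrophil markers summed to 23.4 to 29.5 CPM with PBS, to 29.0 to 32.8 CPM in 4 treated kidneys and to 8.13 CPM in replicate 4. These counts were small, with S100a8 at 14 to 162 and S100a9 at 16 to 204 counts per kidney over the series.

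S100g held 1 value far from the rest of its group. It stood at 65.2, 87.0, 56.8 and 70.5 CPM with PBS and at 61.4, 39.2, 71.0, 401 and 71.8 CPM with rCD5L. The other 4 treated kidneys lay within or below the control range, and the kidney at 401 CPM is replicate 4. The log2 fold change was 0.92 (SE 0.63, adjusted p = 0.897), and -0.19 (adjusted p = 0.802) without it. Calb1, the larger calbindin of the same tubule segments, was 155 CPM in that kidney and 21.3 to 37.1 CPM in the others of its group. The 10 genes of distal calcium transport summed to 3493 CPM there and to 592 to 1113 CPM in the other 18 kidneys, with Klk1 (2118 CPM) and Kl (689 CPM) making up most of the sum there. In that kidney, the calcium channels, pumps and exchanger on the list lay inside or close to the range of the others of its group. Trpv5 was above that range at 80.1 CPM (39.8 to 76.1 CPM in the others). Trpv6 at 11.6 CPM (12.2 to 17.3) and Atp2b4 at 30.8 CPM (32.4 to 36.9) were below it. Atp2b1 at 94.2 CPM (74.2 to 145) and Slc8a1 at 19.6 CPM (16.9 to 21.3) were inside it. The part of these genes in the S100g value was not tested.

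Among the rest, S100a10 stood at 367, 296, 371, 237 and 373 CPM with rCD5L, from below to just inside the control range of 372 to 427 CPM, with a log2 fold change of -0.26 (SE 0.16, adjusted p = 0.897). S100a1 was at 225, 205, 318, 339.9 and 207 CPM with rCD5L, on both sides of its controls (0.076, SE 0.19, adjusted p = 0.958). S100a11 stood at 539, 482, 572, 318 and 499.6 CPM with rCD5L and had a log2 fold change of -0.12. S100a6 stood at 240.0, 223, 294, 117 and 213 CPM (-0.27), and S100a13 at 43.0, 39.3, 50.8, 30.3 and 46.7 CPM (-0.21). These 3 genes were lowest in replicate 4. S100b stood at 1.16, 1.08, 0.66, 0.07 and 0.57 CPM with rCD5L (-0.25) and S100a4 at 0.76, 0.52, 1.09, 0.51 and 0.66 CPM (-0.039), around their controls. The adjusted p of these genes ran from 0.897 to 0.990. Without replicate 4 the log2 fold changes were -0.17 for S100a10, -0.11 for S100a6 and -0.12 for S100a13. Those of S100a11, S100a1, S100b and S100a4 changed sign without it, to 0.0013, -0.046, 0.00086 and 0.045. Without replicate 3, S100a1 stood at -0.0040, S100a11 at -0.18, S100a4 at -0.24, S100a6 at -0.40 and S100a13 at -0.29.

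**Figure D4:**
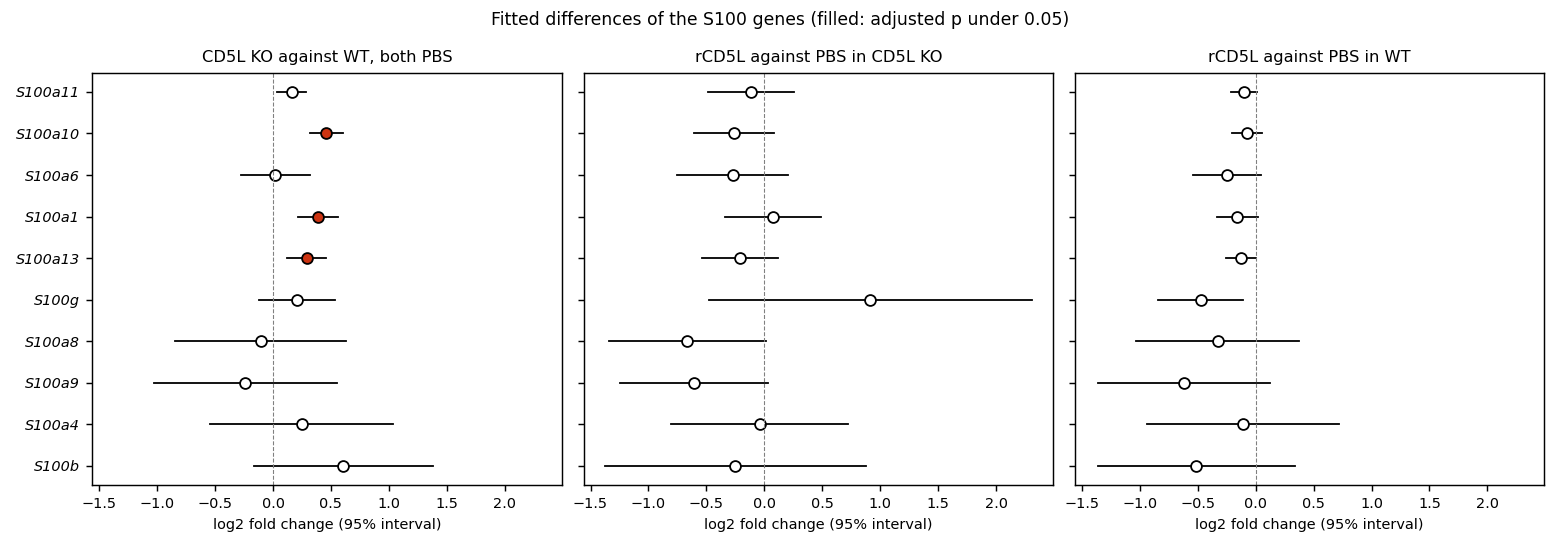
Log2 fold change with its 95% interval for each S100 gene in the 3 comparisons, from edgeR (filled circles have an adjusted p under 0.05). S100a10, S100a1 and S100a13 are filled in the comparison of genotypes, at 0.46, 0.39 and 0.29, and no circle is filled for rCD5L, where the widest interval is that of S100g in CD5L KO mice, from -0.48 to 2.31.

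In WT mice, which have their own CD5L, all 10 genes had a lower fitted level with rCD5L and none passed the test. The median log2 fold change was -0.20, against 0.0046 for all 17455 genes tested, of which edgeR called 0 (0%), with 2797 at an unadjusted p under 0.05 and 542 called by DESeq2, none of them an S100 gene studied here. The groups did not overlap for 0 of the 10 genes, against 3.58% of all genes tested. Length moved with this comparison in the opposite sense (Spearman rho = 0.240), and other coding genes of at most 1484 bases had a median of -0.093. With the length offset, all 10 fitted values were still below 0, with a median of -0.13. Here too the 5 tested epididymis markers were all higher (median 0.81, sums of 15.9 to 39.5 CPM against 12.0 to 24.9 CPM), and the 10 proximal tubule markers (median -0.48) and 8 urothelium markers (median -0.15) were all lower, with 0 called. Their part in the S100 values was not tested.

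The member with the smallest p was S100g, at 53.1, 44.5, 52.5, 28.0 and 36.4 CPM with rCD5L against 49.8 to 81.3 CPM with PBS. Only the 2 treated kidneys at 53.1 and 52.5 CPM reached the control range. Its log2 fold change was -0.48 (SE 0.17, 95% interval -0.84 to -0.11), with an unadjusted p of 0.0149 from edgeR and an adjusted p of 0.196. S100a9 stood at 3.07, 4.14, 4.74, 3.18 and 2.55 CPM and S100a8 at 2.39, 4.25, 4.06, 4.22 and 2.39 CPM with rCD5L, inside the wide range of their controls. Their log2 fold changes were -0.62 (SE 0.35, adjusted p = 0.399) and -0.33 (SE 0.33, adjusted p = 0.668). S100a10, which differed most clearly between the genotypes, stood at 257, 297, 281, 261 and 255 CPM with rCD5L, and its log2 fold change was -0.077 (SE 0.060, 95% interval -0.20 to 0.051, adjusted p = 0.561). S100a11 stood at 424, 465, 413, 438 and 427 CPM with rCD5L, S100a1 at 169, 195, 172, 147 and 158 CPM and S100a13 at 34.2, 40.1, 33.2, 37.1 and 37.6 CPM. S100a6 stood at 195, 281, 208, 206 and 197 CPM, S100b at 0.30, 0.68, 0.38, 0.45 and 0.20 CPM and S100a4 at 0.30, 0.52, 0.38, 0.65 and 0.96 CPM. Each of these 6 genes overlapped its controls, and the log2 fold changes ran from -0.51 (S100b) to -0.098 (S100a11), with adjusted p from 0.334 to 0.921.

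Whether rCD5L acted differently in the 2 genotypes was tested as an interaction over all 4 groups. Of 18454 genes, 0 (0%) passed by edgeR, with 1154 at an unadjusted p under 0.05 and 0 by DESeq2. For the S100 genes, the strongest was S100g at 1.41 (SE 0.67, 95% interval 0.0046 to 2.82, adjusted p = 0.731), and at 0.29 (adjusted p = 0.874) without replicate 4. The other 9 genes had adjusted p from 0.777 to 0.999. The CD5L KO and the WT comparisons with rCD5L each use their own controls, whereas the comparison of genotypes shares its PBS kidneys with both.

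Pairs of genes were compared across the 19 kidneys on the log2 CPM scale, with permutation tests of 100000 resamples adjusted over 6 pairs. S100a8 and S100a9 went together (r = 0.87, p = 4e-05, adjusted p = 0.00024; rho = 0.74, adjusted p = 0.00117), and r was 0.61 (adjusted p = 0.0272) without the 2 kidneys farthest from the S100a8 median (replicate 4 of the CD5L KO group on rCD5L and WT_PBS replicate 4). Without the former alone it was 0.79 (adjusted p = 0.0009). S100a10 and Anxa2 had r = 0.64 (p = 0.0001, adjusted p = 0.0003) and rho = 0.76 (adjusted p = 0.00117), and r was 0.66 without the 2 kidneys farthest from the S100a10 median (CD5L_KO_PBS replicates 3 and 4) and 0.77 (adjusted p = 0.0009) without replicate 4 of the CD5L KO group on rCD5L. With each group's mean removed, r was 0.84 for both pairs (adjusted p = 0.0101).

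S100a6 and S100a11 had r = 0.78 (p = 0.00048, adjusted p = 0.00096) and rho = 0.63 (adjusted p = 0.00801), and r = 0.57 without the 2 kidneys farthest from the S100a6 median. It was 0.56 (adjusted p = 0.0247) without replicate 4 of the CD5L KO group on rCD5L and 0.82 (adjusted p = 0.0101) with each group's mean removed. S100g and Calb1 had r = 0.86 (p = 0.00064, adjusted p = 0.00096) and rho = 0.63 (adjusted p = 0.00801), but r was 0.41 (permutation p = 0.0996, adjusted p = 0.120) without the 2 kidneys farthest from the S100g median, which are that replicate 4 and WT_rCD5L replicate 4, so that in this check the relation rests on those kidneys. Without that replicate 4 alone r was 0.54 (adjusted p = 0.0247), and with each group's mean removed and all 19 kidneys it was 0.84 (adjusted p = 0.0174). S100b and Adipoq, the gene of a fat cell hormone, had r = 0.46 (p = 0.0464, adjusted p = 0.0556) and rho = 0.47 (adjusted p = 0.0502), with r = 0.55 (adjusted p = 0.0355) without the 2 kidneys farthest from the S100b median and 0.56 (adjusted p = 0.0247) without that replicate 4. With each group's mean removed it was 0.26 (adjusted p = 0.443). S100a4 and the macrophage marker Cd68 had r = 0.18 (p = 0.499, adjusted p = 0.499) and rho = 0.20, r = 0.27 without the 2 kidneys farthest from the S100a4 median, 0.17 without that replicate 4 and 0.32 (adjusted p = 0.18) with each group's mean removed.

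**Figure D5:**
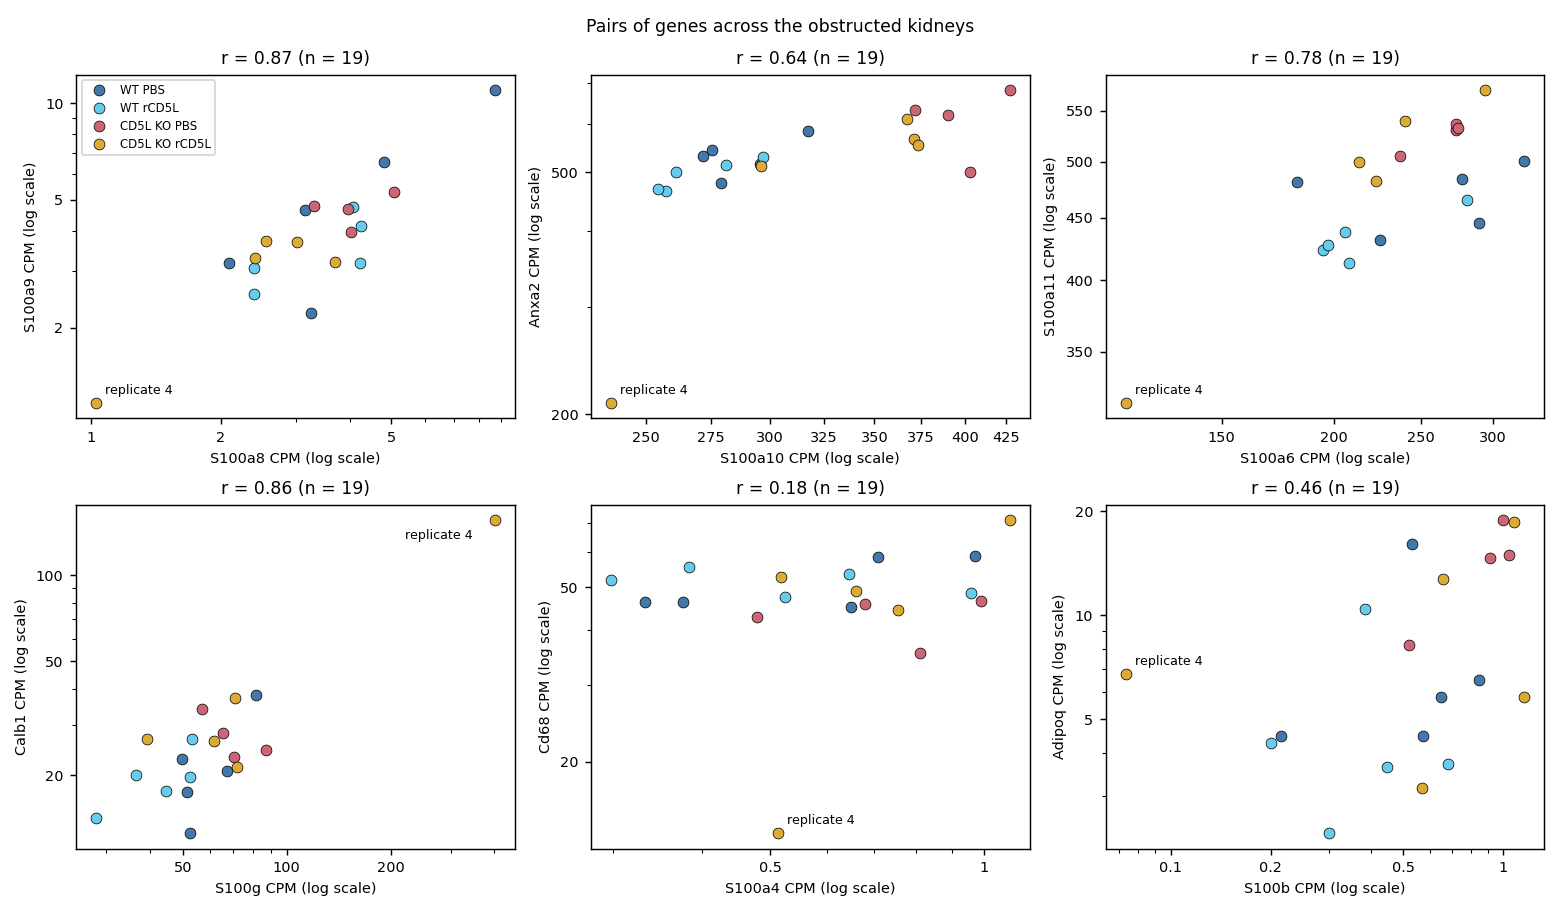
CPM of 6 pairs of genes in 19 obstructed kidneys (log axes), coloured by group, with Pearson's r of the log2 values above each panel and replicate 4 of the CD5L KO group on rCD5L marked. S100a8 and S100a9 rise together (r = 0.87), and in the panel of S100g and Calb1 (r = 0.86) the marked kidney lies far from the other 18.

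Among 14315 other genes whose log2 CPM averaged 1 or more, the 2 whose pattern over the 19 kidneys was most like that of each S100 gene were found by Pearson's r, as a description. For S100a10 these were the ribosomal protein genes Rpl12 (0.901) and Rps24 (0.897), for S100a11 2200002D01Rik (0.964) and Cstb (0.940), and for S100a6 Bok (0.912) and Akr1b8 (0.899). For S100a1 they were Cd63 (0.968) and Cops9 (0.962), and for S100a13 the cystatin genes Cst3 (0.895) and Cstb (0.893). S100g was most like Slc26a4, which encodes the anion exchanger pendrin of intercalated cells (0.953), and Gm44386 (0.949). For S100a8 they were the decoy receptor gene Il1r2 (0.871) and Srd5a1 (0.848), and for S100a9 the epithelial Sprr2f (0.863) and Nov (0.834). S100b was nearest to Spp1 (0.860) and Gpx8 (0.837), and S100a4 to Gm6311 (0.826) and Stmn1 (0.762). Of these 20, 7 were at most 1484 bases long, and 5 were named again without replicate 4 of the CD5L KO group on rCD5L, an alternative chosen after seeing the data. Without that kidney, the genes most like S100g were Scg5 (0.846) and Etfb (0.839).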

How the data were processed

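RNA of 19 whole obstructed kidneys was sequenced by the authors from random-primed paired-end libraries. The sample labels gave group and replicate, and columns were matched by library name. Per the labels and the methods, the authors trimmed reads with Trimmomatic, aligned them to GRCm38 (mm10) with HISAT2 and deposited raw counts per gene from featureCounts. The authors also deposited FPKM values, which divide the same counts by gene length and a scaled library size. Versions, strand setting and the handling of shared reads are not given in the sources used here. The 0 rows without a gene and 0 columns without a sample needed no handling.

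For the counts, edgeR 4.0.16 was run under R 4.3.3 (filterByExpr with a minimum count of 10, TMM, glmQLFit, glmQLFTest), with the 2 groups compared in each fit and all 4 in the interaction. The authors' own tests used DESeq2. P-values were adjusted by Benjamini and Hochberg over all genes tested, and those under 0.05 were called. SE is the log2 fold change over the square root of F. CPM are TMM-scaled over all kidneys, and log2 CPM used a prior count of 2. The length offset was a lowess trend (span 0.3). Alternatives were DESeq2 1.42.0, RLE factors, other filters, limma 3.58.1 on FPKM (pseudocounts 1 and 0.1), a replicate block, all kidneys in 1 fit, a log2 fold change of at least 1 and leaving out each kidney. Fits were tested on simulated data.

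The genes and lists were chosen with earlier results of these data known. Named were the 10 genes, called list genes (up to 5 per list), 11 fixed partners and markers, and the 2 genes most like each S100 gene. Kl, Trpv6, Atp2b1, Slc8a1, Lcn9, Scg5, Etfb and the neutrophil genes other than Ly6g were named after their values were seen. Kidneys of a group differed beyond counting noise (chi-square per degree of freedom of 6.63 to 319), so each counted as 1 mouse. Limits on counts of 0 cover counting error only.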

Additional observations from a re-analysis of the deposited data

Results flagged for a closer look

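Of 40 tests (10 genes in 4 groups of 4 or 5 kidneys), 4 had a highest or lowest kidney that lay far from the rest of its group by Dixon's test, and chance alone gives about 1 in 20. S100g was 401 CPM in CD5L_KO_rCD5L replicate 4, against 71.8 CPM in the next kidney, and S100a9 was 1.17 CPM in the same kidney, against 3.20 CPM in the next. This is the kidney with proximal tubule markers of 55255 CPM and macrophage markers of 972 CPM. S100a6 was 237 CPM in CD5L_KO_PBS replicate 3, against 273 CPM in the next kidney of a group that otherwise spans less than 2 CPM. S100a6 was 281 CPM in WT_rCD5L replicate 2, against 208 CPM in the next. Of the 10 genes, 0 met the rule that every kidney moves the opposite way in the other genotype, and 0 passed the interaction test. In WT the groups overlapped for every gene, so the rule could not be met and says nothing on agreement. The fitted values had opposite signs for S100g (0.92 in CD5L KO, -0.48 in WT) and S100a1 (0.076 and -0.16), none of which passed the test.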

How the results depend on the processing

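For CD5L KO against WT, 3 S100 genes and 1850 genes in all were called. This became 0 and 36 with a log2 fold change of at least 1, 0 and 12 with all 19 kidneys in 1 fit, 1 and 1305 with the length offset, and 1 and 1486 with the length offset and replicate block. Leaving out 1 kidney gave 1015 to 2062 genes called, with fewer by over 1.5 times without WT_PBS replicate 4 (1015) or 2 (1121) and CD5L_KO_PBS replicate 1 (1038) or 2 (1215). For rCD5L, DESeq2 called 10 genes in CD5L KO and 542 in WT, no filter called 137 in WT, and leaving out 1 kidney called 0 to 39 in WT (39 without WT_PBS replicate 1), with 0 S100 genes in each. The cause was not tested.

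Some fitted values that had not passed the test changed sign (of these genes, DESeq2 called S100a11 between the genotypes). For CD5L KO against WT, these were S100a11 (-0.028), S100a6 (-0.098) with the length offset, S100a11 (-0.043), S100g (-0.027) and S100a6 (-0.11) with the length offset and replicate block, S100a6 (-0.00039) with the replicate block, and S100a8 on the FPKM scale (0.0094 and 0.033 at pseudocounts of 1 and 0.1). For rCD5L in CD5L KO, these were S100a11 (0.0022) and S100a4 (0.054) with the length offset, and S100a4 (0.072) with the length offset and replicate block. Leaving out 1 kidney moved S100a6 from -0.087 to 0.11, S100a8 from -0.28 to 0.29 and S100a9 from -0.44 to 0.16 between the genotypes. It moved S100a11 from -0.18 to 0.0013, S100a1 from -0.046 to 0.15, S100a4 from -0.24 to 0.13, S100b from -0.48 to 0.00086 and S100g from -0.19 to 1.15 for rCD5L in CD5L KO. In WT it moved S100a4 from -0.40 to 0.13 and S100a8 from -0.50 to 0.067. Besides the minimum log2 fold change of 1, under which none was called, S100a10 kept its call in 18 of 19 alternatives, S100a1 in 16 and S100a13 in 10. For S100b and Adipoq, r passed the threshold on the FPKM scale (0.519) and without CD5L_KO_rCD5L replicate 4 (0.563), but not with group means removed (0.255, adjusted p = 0.443).

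The replicate block called 3 S100 genes between the genotypes and 0 for rCD5L, and changed no call of them. The correlation of deviations between same-numbered kidneys exceeded 0.1 in 2 of 4 pairs between the genotypes (-0.019 to 0.34). It did so in 3 of 4 pairs for rCD5L in CD5L KO (0.052 to 0.37) and in 0 of 5 in WT. Kidneys with different numbers were not compared, so these values cannot decide whether same-numbered kidneys were paired. Low counts limit S100a4, S100b, S100a8 and S100a9.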
